A study of Homo sapiens with 24 samples.

Results

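NF-κB is a family of dimeric transcription factors that drives inflammatory, survival and stress genes. This account covers 10 of its subunits and feedback regulators, chosen by symbol and matched to the Ensembl identifiers of the count tables, which list 57500 genes in all. The 10 genes were the subunits RELA, RELB, NFKB1 and NFKB2, the classical inhibitors NFKBIA, NFKBIB and NFKBIE, the nuclear inhibitor-like proteins NFKBIZ and BCL3, and the feedback enzyme TNFAIP3. RNA came from spheroids, small cell aggregates grown without attachment, of FaDu (hypopharynx) and SAS (tongue), established lines of head and neck squamous cell carcinoma. FaDu spheroids were left untreated (control), given a single radiation dose of 7 Gy (RT), heated to 42.5 °C for 60 min (hyperthermia, HT), or heated and then irradiated with 7 Gy (HT + RT). SAS spheroids went through the same 4 conditions with a radiation dose of 10 Gy, so that dose and spheroid type cannot be told apart in any comparison of RT between them. Each of the 8 groups held 3 libraries, sampled 0.5 h after treatment.

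In resting cells, NF-κB dimers are held in the cytoplasm by classical inhibitors (IκB proteins), which are phosphorylated by the IκB kinase complex and degraded when a signal arrives. The freed dimers enter the nucleus and bind κB sites, and among the genes they switch on are NFKBIA and TNFAIP3, whose proteins shut the pathway off again. NFKBIZ and BCL3 encode nuclear relatives of the inhibitors that join DNA-bound dimers and can raise transcription of a subset of the targets. Squamous carcinomas of the head and neck often show NF-κB activity without an external stimulus.

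The libraries held 15203484 to 29452514 counts, with a median of 18378943. All 10 genes passed the filter on low counts in all 14 comparisons, so no member was left out. Both lines expressed squamous epithelial genes, of which 9 markers summed to 9840 to 11740 CPM (reads of a gene relative to the TMM-adjusted size of its library, over all 24 libraries) in FaDu and 3780 to 4610 CPM in SAS libraries, KRT17 being the most abundant. In FaDu this sum was 10010 to 10290 CPM in the controls, 11110 to 11740 CPM upon HT and 11260 to 11460 CPM upon HT + RT, without overlap between control and heated libraries. The leukocyte genes PTPRC, CD3E, CD2 and MS4A1 stayed under 1 CPM in each library, and CD14 lay at 4.34 to 6.4 CPM in FaDu and 4.99 to 9.52 CPM in SAS libraries. In SAS, CD14 was at 6.67 to 9.52 CPM in the controls and lower upon HT, at 4.99 to 6.65 CPM, while HT + RT overlapped with the controls. CD68 lay at 1.13 to 2.81 CPM over both types, and ITGAM was at most 2.4 CPM in FaDu and under 1 CPM in SAS libraries. The 5 endothelial markers summed to 6.17 to 8.71 CPM in FaDu and 9.54 to 23.6 CPM in SAS libraries, with CDH5 as the most abundant gene and KDR and TEK under 1 CPM. In FaDu this endothelial sum was 7.66 to 8.71 CPM in the controls. It was lower in heated libraries, without overlap, at 6.44 to 7.16 CPM upon HT and 6.17 to 6.87 CPM upon HT + RT. Of 6 fibroblast markers, 5 were under 1 CPM in each library, and the remaining gene, COL1A1, moved with heating. In FaDu it stood at 35.7 to 47.2 CPM in the controls, at 48.2 to 63.7 CPM upon HT, without overlap, and at 45.02 to 65.7 CPM upon HT + RT, with overlap. In SAS it stood at 0.969 to 1.83 CPM in the controls, 16.3 to 30.5 CPM upon HT and 23.7 to 24.4 CPM upon HT + RT. The part of these marker shifts in the results on heated spheroids was not tested. The heat labels were met by HSPA6, a heat-inducible HSP70 gene, which was at most 1.75 CPM in unheated and 1550 to 5040 CPM in heated libraries. HSPA1A, another heat-inducible HSP70 gene, was at 66.6 to 187 CPM in unheated and 2480 to 4400 CPM in heated libraries. Replicate 1 stood apart in each FaDu group, with a chi-square per gene of 15.1 to 22 against the other replicates of its group, where replicates 2 and 3 differed by 3.51 to 5.09. Results for FaDu are therefore also given without these 4 libraries where a call changes.

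A gene is called altered here at an adjusted p under 0.05 with an absolute log2 fold change over 1, and the number past the adjusted p alone is given beside it. Adjusted p-values come from the quasi-likelihood test of edgeR with Benjamini-Hochberg adjustment over all genes tested, and log2 fold changes carry their standard error (SE). Same-numbered libraries deviated together in most comparisons, so calls that change with replicate number as a block in the model are given with both values. For fits with the block, no share of all genes past the adjusted p is given in any comparison, so these calls describe single members.

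After RT, NFKBIZ was the member with the largest estimated log2 fold change in both spheroid types. In FaDu spheroids 1 of 10 members was altered, NFKBIZ, which was also the single altered gene among 15552 tested (0.00643%), and it was also the single member past the adjusted p alone (0.0322% of all genes). The count of altered genes there was 28 with the replicate block or with no filter on low counts, 11 by DESeq2, 12 with all 24 libraries in 1 fit, 15 in replicates 2 and 3 alone, and 0 to 8 with 1 library left out. With the block NFKBIA and TNFAIP3 also passed the adjusted p, for which no share over all genes is given here. In SAS spheroids 0 of 10 were altered by edgeR, against 4 of 14680 genes (0.0272%), and 0 passed the adjusted p alone (0.0749% of all genes). At an unadjusted p under 0.05 there were 2 SAS members, where all genes gave 834 of 14680. DESeq2 called 1 of these members altered, NFKBIZ. With the block NFKBIZ and NFKBIA passed the adjusted p in SAS, again without a share over all genes. By the stricter rule for altered genes, 25 were altered in SAS with the block, NFKBIZ among them. These were 10 by DESeq2 and 30 with no filter on low counts. The median log2 fold change of the 10 genes was 0.1 in FaDu and 0.06 in SAS. In bulk RNA, fewer cells of a type and less RNA per cell cannot be told apart.

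In FaDu spheroids HT altered 1 of 10 members, NFKBIZ, which rose, while 4.97% of 15879 genes were altered, 682 upward and 107 downward. Past the adjusted p alone 4 of 10 rose and 0 fell, where 17.6% of genes passed, 1262 upward and 1539 downward. By DESeq2 NFKBIE passed as well (0.47, adjusted p = 0.0296). SAS spheroids had 2 of 10 altered upward, where 6.03% of 15000 genes were altered, 797 upward and 107 downward. Past the adjusted p 3 rose and 1 fell, where 23.6% of genes passed, 1823 upward and 1717 downward. Upon HT + RT, 2 of 10 were altered upward in FaDu, where 5.72% of 15896 genes were altered, 808 of them upward, and 5 rose past the adjusted p, where 19.3% of genes passed, 1513 of them upward. The same treatment altered 2 of 10 upward in SAS, where 6.36% of 14938 genes were altered, 861 of them upward, and 3 rose past the adjusted p, where 25.1% passed, 2035 of them upward. The counts of altered genes depend on the filter. With no filter on low counts, HT altered 1382 genes in FaDu and HT + RT 1487, and in SAS these were 1307 and 1436. With at least 10 counts in every library they were 463 and 484 in FaDu and 512 and 552 in SAS. With so few members, these shares describe the list and give no test of it. The median log2 fold change of the 10 genes upon HT was 0.34 in FaDu and 0.19 in SAS, where the medians over all genes were 0.006 and 0.003.

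**Figure D1:**
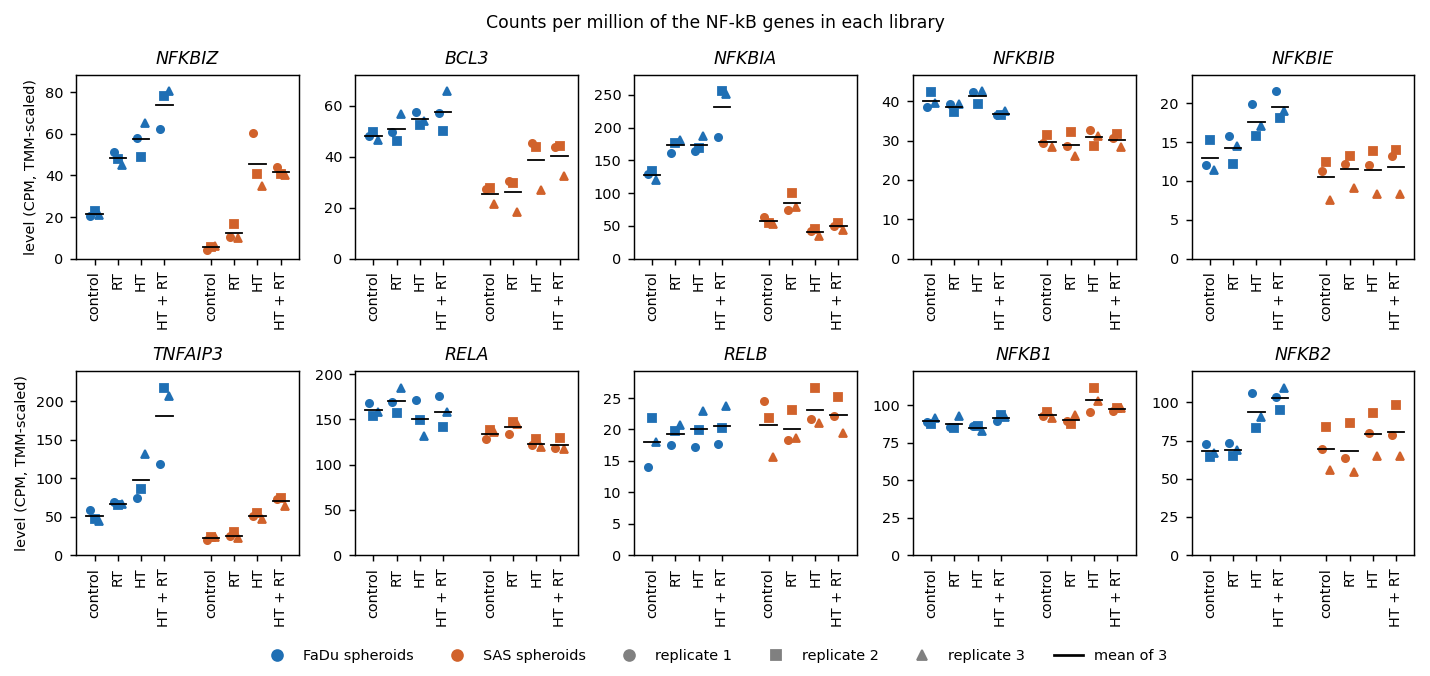
Level of each of the 10 genes in each library, in CPM with TMM scaling on linear axes from 0, by condition, with FaDu in blue, SAS in orange, marker shapes for replicates 1 to 3 and a bar at the mean of 3. NFKBIZ rose from 4.24 to 6.31 CPM in SAS controls to 34.7 to 60.4 CPM upon HT, NFKBIA rose in heated FaDu spheroids and fell in SAS spheroids upon HT, and RELA and NFKB1 stayed nearly level.

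RefSeq promoter windows of 300 bases (250 before to 50 after a transcription start, build GRCh38.p14) were available for 8 of the 10 genes, in 14 windows, with no entry for NFKBIE and RELB. They were searched on both strands for the κB consensus, the DNA letters that NF-κB dimers prefer. At least 1 match lay in 9 of the 14 windows and in 7 of the 8 genes, while 5.91% of all 35116 windows and 7.09% of all 27305 genes in the table held one. RELA was the exception, with no match in either of its 2 windows. The heat shock element of 3 units, searched as GAA, TTC and GAA with 2 free bases between neighbors, and as its reverse complement, was in 0 of the 14 windows and in 0.49% of all windows. A match describes letters in a window and not a bound site.

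**Figure D2:**
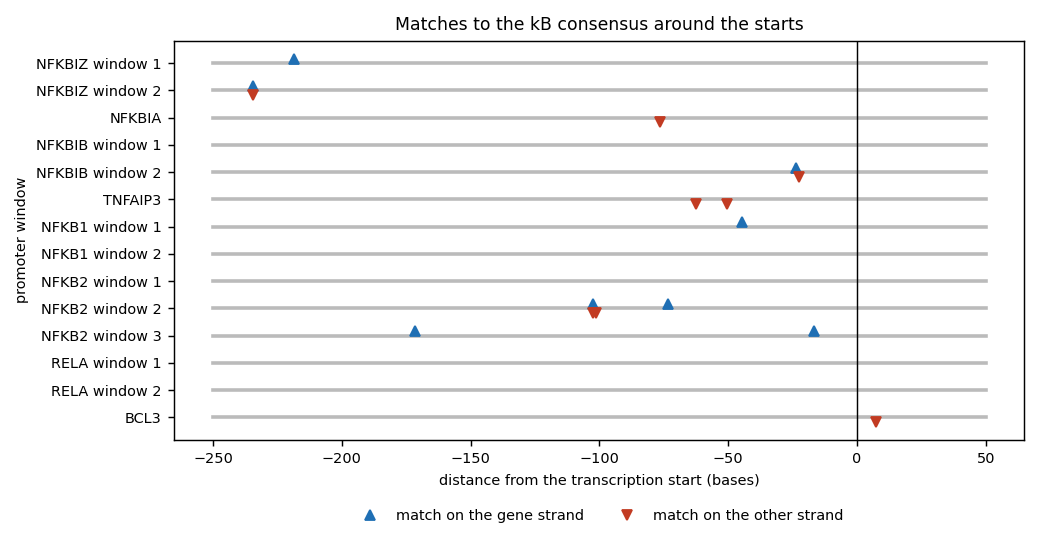
Matches to the κB consensus in the 14 promoter windows, by distance in bases from the transcription start, with upward triangles for the gene's strand and downward triangles for the other strand. NFKB2 window 2 carried 4 matches at 2 places, TNFAIP3 carried 2 matches upstream of its start, and both RELA windows were empty.

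NFKBIZ (ENSG00000144802) encodes IκBζ, a nuclear protein that is induced by NF-κB signaling and acts as a cofactor at a second wave of targets such as IL6. It had the largest heat response of the 10 genes in SAS spheroids. The window at 1 of its 2 starts, chr3:101827740-101828039 on the plus strand, is printed as an example, with its κB match at positions -223 to -214 from the start in capitals, and the window at the other start also holds a match.
NFKBIZ: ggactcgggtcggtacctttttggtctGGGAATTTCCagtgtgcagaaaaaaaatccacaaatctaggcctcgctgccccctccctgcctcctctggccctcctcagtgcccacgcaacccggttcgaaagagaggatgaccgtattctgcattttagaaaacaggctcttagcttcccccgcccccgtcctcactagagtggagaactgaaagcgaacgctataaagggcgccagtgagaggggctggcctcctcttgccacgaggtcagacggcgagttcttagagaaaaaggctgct

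In FaDu controls NFKBIZ stood at 20.4, 23.1 and 20.8 CPM in replicates 1 to 3. RT brought it to 51.3, 48.0 and 45.1 CPM, HT to 58.0, 48.8 and 64.9 CPM, and HT + RT to 62.5, 78.0 and 80.4 CPM. Each treated FaDu library lay above each control. The log2 fold changes were 1.17 (SE 0.09, adjusted p = 0.005) for RT, 1.44 (SE 0.12, adjusted p = 0.00012) for HT and 1.80 (SE 0.11, adjusted p = 1.1e-05) for HT + RT. The call after RT was lost without FaDu control replicate 3 (adjusted p = 0.068) or FaDu RT replicate 2 (adjusted p = 0.0685), with log2 fold changes of 1.14 and 1.16.

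SAS controls held less NFKBIZ, at 4.24, 5.76 and 6.31 CPM. After RT the values were 10.2, 16.5 and 9.87 CPM, with replicate 2 highest. Upon HT they were 60.4, 40.9 and 34.7 CPM, and upon HT + RT 44.2, 40.9 and 40.4 CPM. No treated SAS library overlapped with the controls, and the heated libraries lay above the irradiated ones. The rise upon HT was 3.10 (SE 0.22, adjusted p = 1e-06) and that upon HT + RT was 2.99 (SE 0.13, adjusted p = 2.2e-08) on the log2 scale. RT gave the same estimate as in FaDu, 1.17, but with an SE of 0.23 and an adjusted p of 0.14. With replicate number as a block the SAS RT estimate was 1.15 and passed (adjusted p = 4e-05), which made NFKBIZ 1 altered member of 10.

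Over the 8 groups, mean NFKBIZ levels ran from 5.44 CPM in SAS controls through 12.2 CPM in SAS RT and 21.4 CPM in FaDu controls to 73.6 CPM in FaDu HT + RT. SAS HT + RT (41.8 CPM), SAS HT (45.3 CPM), FaDu RT (48.1 CPM) and FaDu HT (57.3 CPM) came between, and each overlapped with its neighbor in that order. FaDu controls exceeded SAS controls by 2.01 (SE 0.15, adjusted p = 5.1e-07), while upon HT the groups of the 2 types overlapped. Irradiating heated spheroids added 0.35 (SE 0.13, adjusted p = 1) in FaDu, or 0.35 with an adjusted p of 0.0099 with the block, and gave -0.11 (SE 0.16, adjusted p = 1) in SAS.

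BCL3 (ENSG00000069399), the other nuclear relative, binds dimers of the NFKB1 and NFKB2 products. In SAS controls it stood at 27.2, 27.8 and 21.6 CPM, and upon HT at 45.2, 43.8 and 26.8 CPM. Replicate 3 was low in both groups, and its heated value lay within the range of the controls. HT + RT gave 43.8, 44.3 and 32.4 CPM, above all controls. BCL3 rose upon HT by 0.63 (SE 0.17, adjusted p = 0.021) and upon HT + RT by 0.70 (SE 0.13, adjusted p = 0.0023) on the log2 scale. The HT call was lost without SAS control replicate 3 (0.52, adjusted p = 0.0588), SAS HT replicate 1 (0.49, adjusted p = 0.0891) or SAS HT replicate 2 (0.53, adjusted p = 0.0906). In FaDu spheroids its level went from 46.5 to 49.7 CPM in controls to 52.4 to 57.4 CPM upon HT and 49.97 to 65.6 CPM upon HT + RT, without overlap. Neither passed (0.21, adjusted p = 0.071, and 0.28, adjusted p = 0.07), but both did with the block (adjusted p = 0.025 and 0.0054). The FaDu HT + RT change also passed without HT + RT replicate 2 (0.37, adjusted p = 0.0288) and in replicates 2 and 3 alone (0.30, adjusted p = 0.00747). The short gene MIR8085 shares 65 exon bases with BCL3 on the same strand, and it was not among the genes counted.

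NFKBIA (ENSG00000100906) encodes IκBα, the inhibitor that is degraded and resynthesized within the first hours of a response. Its direction upon HT differed between the spheroid types. The window chr14:35404700-35404999, on the minus strand, is shown for the κB match on the opposite strand at positions -81 to -72, in capitals.
NFKBIA: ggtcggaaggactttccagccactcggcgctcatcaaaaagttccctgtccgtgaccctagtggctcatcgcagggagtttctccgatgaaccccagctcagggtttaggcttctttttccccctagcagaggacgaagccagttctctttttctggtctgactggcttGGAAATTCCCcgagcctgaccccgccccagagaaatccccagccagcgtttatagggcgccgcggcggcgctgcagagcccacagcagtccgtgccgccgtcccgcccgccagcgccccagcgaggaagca

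In FaDu spheroids NFKBIA went from 130, 134 and 120 CPM in controls to 165, 169 and 187 CPM upon HT and 186, 255 and 251 CPM upon HT + RT. All heated libraries exceeded all controls, and replicate 1 was the lowest upon HT + RT. The gene rose by 0.47 (SE 0.08, adjusted p = 0.005) upon HT and by 0.87 (SE 0.12, adjusted p = 0.0012) upon HT + RT on the log2 scale. Without the replicate 1 libraries of FaDu the HT + RT estimate was 1.01, which made NFKBIA an altered gene; leaving out replicate 1 of HT + RT alone gave 1.01 as well.

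In SAS spheroids the controls stood at 64.0, 53.9 and 53.6 CPM, the HT libraries at 42.5, 45.1 and 35.2 CPM and the HT + RT libraries at 50.5, 53.9 and 43.4 CPM. Each HT library was below each control, while HT + RT overlapped with them. NFKBIA fell by 0.45 (SE 0.1, adjusted p = 0.0072) upon HT on the log2 scale, and the HT + RT estimate was -0.16 (SE 0.09, adjusted p = 0.23). RT alone gave higher values than control in both types, 160 to 181 CPM in FaDu and 74.4 to 100 CPM in SAS, with no overlap. These missed the threshold (0.44, adjusted p = 0.14, and 0.57, adjusted p = 0.15) but passed with the block (0.44, adjusted p = 2.2e-06, and 0.56, adjusted p = 0.00011). Both also passed by DESeq2 (adjusted p = 0.000155 in FaDu and 0.000554 in SAS). The FaDu change also passed without RT replicate 1 (0.49, adjusted p = 0.0325) and in replicates 2 and 3 alone (0.50, adjusted p = 6.3e-07).

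Of the other classical inhibitors, NFKBIB (ENSG00000104825) encodes IκBβ, which is degraded more slowly, and NFKBIE (ENSG00000146232) encodes IκBε, which is resynthesized with a delay. NFKBIB levels spanned 36.4 to 42.5 CPM over the FaDu libraries and 26.1 to 32.7 CPM over those of SAS, and its log2 fold changes against control lay between -0.1 and 0.09. It shares 40 of its 2324 exon bases with SIRT2 on the opposite strand, and reads in these shared bases cannot be told apart where strand was not used. NFKBIE was at 12.1, 15.3 and 11.4 CPM in FaDu controls, at 19.9, 15.7 and 17.1 CPM upon HT and at 21.5, 18.1 and 19.0 CPM upon HT + RT. The heated FaDu libraries lay above the controls, replicate 2 of HT by a small margin. NFKBIE rose upon HT + RT by 0.62 (SE 0.13, adjusted p = 0.012) on the log2 scale, a call lost without FaDu control replicate 3 (0.52, adjusted p = 0.0552). Upon HT it was at 0.47 (SE 0.14, adjusted p = 0.055), and 0.47 with an adjusted p of 0.0078 with the block. It also passed without FaDu control replicate 2 (0.61, adjusted p = 0.0335). In SAS spheroids NFKBIE overlapped between all conditions, at 7.60 to 13.9 CPM.

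**Figure D3:**
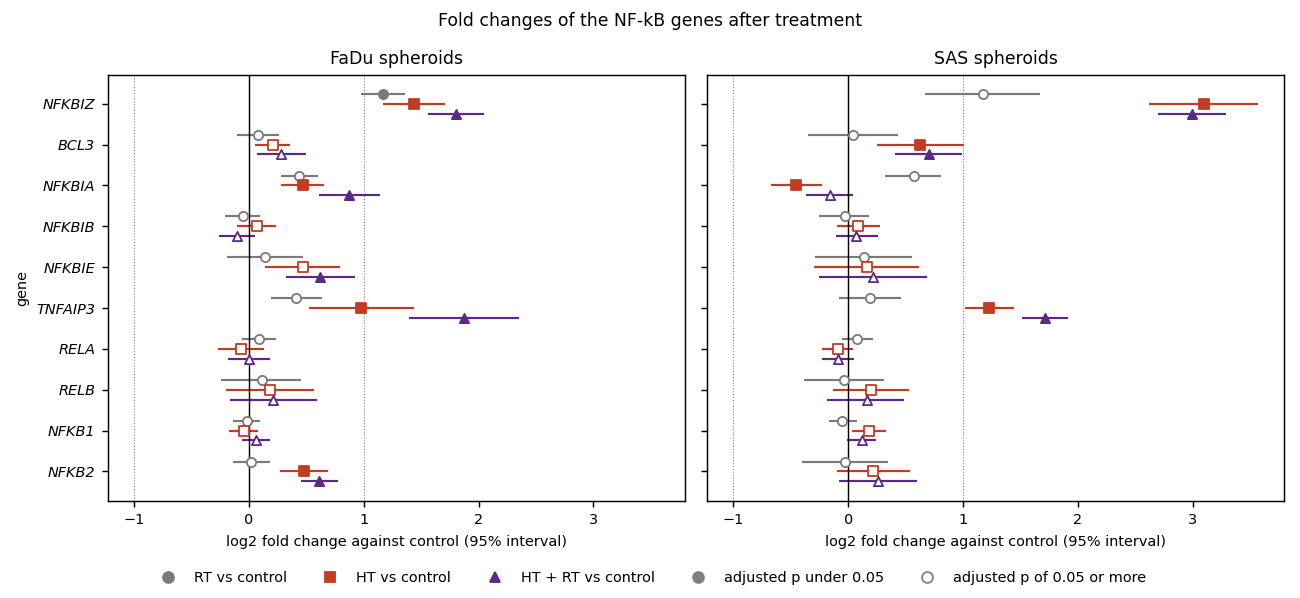
Log2 fold changes against control with 95% intervals for RT (grey circles), HT (red squares) and HT + RT (purple triangles) in FaDu (left) and SAS (right) spheroids, filled where the adjusted p was under 0.05, with dotted lines at -1 and 1. NFKBIZ and TNFAIP3 lay farthest to the right upon HT + RT, at 1.80 and 1.87 in FaDu and 2.99 and 1.71 in SAS, and NFKBIA upon HT lay at 0.47 in FaDu and -0.45 in SAS.

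TNFAIP3 (ENSG00000118503) encodes the ubiquitin-editing enzyme A20, which removes and rebuilds ubiquitin chains on signaling adaptors and so ends activation of the IκB kinases. It rose in heated spheroids of both types. The window chr6:137867009-137867308, on the plus strand, is shown because it holds a pair of κB matches on the opposite strand, at positions -67 to -58 and -55 to -46, in capitals.
TNFAIP3: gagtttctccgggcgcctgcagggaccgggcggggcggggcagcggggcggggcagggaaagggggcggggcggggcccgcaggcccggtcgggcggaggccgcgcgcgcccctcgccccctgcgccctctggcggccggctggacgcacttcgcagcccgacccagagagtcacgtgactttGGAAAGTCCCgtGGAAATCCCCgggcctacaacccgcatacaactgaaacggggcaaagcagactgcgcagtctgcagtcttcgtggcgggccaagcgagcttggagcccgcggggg

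FaDu controls held TNFAIP3 at 58.6, 47.7 and 44.8 CPM and RT libraries at 68.8, 65.1 and 67.0 CPM. Upon HT it stood at 74.6, 86.3 and 131 CPM, and upon HT + RT at 119, 218 and 207 CPM. All treated libraries lay above all controls, with replicate 3 high upon HT and replicate 1 low upon HT + RT. The log2 fold changes were 0.98 (SE 0.2, adjusted p = 0.012) upon HT and 1.87 (SE 0.21, adjusted p = 0.00047) upon HT + RT. In replicates 2 and 3 alone these were 1.27 (adjusted p = 1.36e-08) and 2.22, so that TNFAIP3 then counted as altered by HT, 2 members of 10 in place of 1. Leaving out FaDu control replicate 1 (1.1, adjusted p = 0.0129), HT replicate 1 (1.15, adjusted p = 0.0017) or HT replicate 2 (1.07, adjusted p = 0.024) also gave 2. The HT call was lost without FaDu control replicate 2 (0.95, adjusted p = 0.054) or FaDu control replicate 3 (0.90, adjusted p = 0.055). RT alone gave 0.41 (SE 0.1, adjusted p = 0.39), and 0.42 with an adjusted p of 6e-05 with the block, and 0.52 (adjusted p = 7.06e-06) in replicates 2 and 3 alone. By DESeq2 the RT change of TNFAIP3 in FaDu passed (0.41, adjusted p = 0.0395).

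In SAS spheroids TNFAIP3 was at 20.3, 23.2 and 23.3 CPM in controls, 24.7, 29.5 and 21.8 CPM after RT, 51.2, 55.3 and 46.6 CPM upon HT and 73.6, 73.8 and 63.9 CPM upon HT + RT. RT overlapped with control, HT lay above both, and HT + RT lay above HT in each library. Altered upon HT (1.23, SE 0.1, adjusted p = 2.4e-06) and upon HT + RT (1.71, SE 0.09, adjusted p = 9e-08), it was the second altered member in this line. The antisense gene AL357060.1 shares 95 exon bases with TNFAIP3 and had 1166 counts over all libraries against 33876 for TNFAIP3. Whether counting used strand was not given in the sources used here.

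RT in heated spheroids, as HT + RT against HT, altered 0 of 10 members in FaDu and 0 of 10 in SAS by edgeR, as it altered 0 of 16145 (0%) and 0 of 15341 genes. At an unadjusted p under 0.05 there were 361 genes, 4 of them members, in FaDu and 673 genes, 2 of them members, in SAS. DESeq2 altered 2 and 5 genes, of which 0 were members. TNFAIP3 had the largest difference of the 10 in both lines, 0.88 (SE 0.27, adjusted p = 1) in FaDu, where the groups overlapped, and 0.48 (SE 0.08, adjusted p = 0.088) in SAS, where they did not. By DESeq2 TNFAIP3 passed the adjusted p in SAS (0.47, adjusted p = 0.00105) and not in FaDu. With the block, 3 of all genes were altered in FaDu and 7 in SAS, and no share past the adjusted p is given. TNFAIP3 then passed the adjusted p at 0.87 (adjusted p = 5.9e-07) in FaDu and 0.48 (adjusted p = 0.00016) in SAS. NFKBIA passed as well, at 0.39 (adjusted p = 0.00021) in FaDu and 0.28 (adjusted p = 0.023) in SAS, in place of 0.40 (adjusted p = 1) and 0.28 (adjusted p = 0.99). In FaDu replicates 2 and 3 alone, TNFAIP3 was at 0.94 and NFKBIA at 0.49, each with an adjusted p of 0.00196.

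RELA (ENSG00000173039), the main transactivating subunit, encodes p65, and NFKB1 (ENSG00000109320) encodes its most common partner. RELA levels spanned 132 to 185 CPM over the FaDu libraries and 117 to 147 CPM over those of SAS, with log2 fold changes against control from -0.09 to 0.09. NFKB1 levels spanned 82.9 to 93.4 CPM over the FaDu libraries and 87.5 to 112 CPM over those of SAS, with changes from -0.05 to 0.18. RELA and NFKB1 passed in no comparison of treatments in the main model. The widest 95% interval of RELA against control, upon HT in FaDu, ran from -0.27 to 0.13. The RELA window chr11:65663808-65664107, on the minus strand, is printed as the contrast, since it holds no κB match and hence no capitals.
RELA: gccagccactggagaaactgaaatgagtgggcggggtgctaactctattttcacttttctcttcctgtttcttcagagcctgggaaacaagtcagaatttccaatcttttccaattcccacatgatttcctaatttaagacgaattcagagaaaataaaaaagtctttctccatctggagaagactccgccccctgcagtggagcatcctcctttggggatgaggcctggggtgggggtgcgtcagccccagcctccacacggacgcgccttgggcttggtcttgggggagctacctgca

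RELB (ENSG00000104856) and NFKB2 (ENSG00000077150) form the dimer of the non-canonical branch, in which the NFKB2 precursor is processed after a slower signal. RELB was between 14.1 and 26.7 CPM in all libraries, and its changes against control, from -0.04 to 0.21, passed in no comparison. NFKB2 stood at 73.0, 64.5 and 67.0 CPM in FaDu controls, at 106, 83.4 and 90.6 CPM upon HT and at 103, 95.2 and 110 CPM upon HT + RT. Heated FaDu libraries lay above all controls, with rises of 0.48 (SE 0.09, adjusted p = 0.0089) and 0.61 (SE 0.07, adjusted p = 0.00054) on the log2 scale. In SAS spheroids it was at 69.4, 83.9 and 55.8 CPM in controls and 78.8, 98.1 and 64.9 CPM upon HT + RT, so that the groups overlapped. Replicate 2 was the highest and replicate 3 the lowest in each SAS group, for NFKB2 and for NFKBIE alike. The SAS change upon HT + RT was 0.26 (SE 0.15, adjusted p = 0.26), and 0.26 with an adjusted p of 0.00075 with the block. The window chr10:102394328-102394627, on the plus strand, is shown as an example, with its 2 places of κB matches, at -107 to -97 and -78 to -69, in capitals, and window 3 of this gene also has matches at 2 places.
NFKB2: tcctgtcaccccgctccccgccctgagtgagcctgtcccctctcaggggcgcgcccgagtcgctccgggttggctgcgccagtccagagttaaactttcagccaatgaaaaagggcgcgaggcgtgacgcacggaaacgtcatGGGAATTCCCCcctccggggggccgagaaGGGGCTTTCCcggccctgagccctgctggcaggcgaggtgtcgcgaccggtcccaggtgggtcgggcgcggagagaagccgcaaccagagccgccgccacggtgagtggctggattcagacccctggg

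FaDu controls exceeded SAS controls in 6 of 10 members past the adjusted p. Of 15810 genes 75% passed in either direction, 6095 of them higher and 5760 lower in FaDu. Altered and higher in FaDu were 3 members, where 38.1% of genes were altered, 3356 higher and 2664 lower. With at least 10 counts in every library 3661 genes were altered in place of 6020. The altered members were NFKBIZ, TNFAIP3 (1.21, SE 0.11, adjusted p = 2.7e-06) and NFKBIA (1.19, SE 0.08, adjusted p = 3e-07). BCL3 (0.94, SE 0.1), NFKBIB (0.47, SE 0.08) and RELA (0.29, SE 0.06) followed. NFKB1 (-0.03), NFKB2 (0.00), RELB (-0.17) and NFKBIE (0.33) did not pass.

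To compare different genes, levels were divided by the exon union, all annotated exons of a gene together. It can exceed the length of the transcripts expressed, which was not measured, so the order of genes depends on it. The union was 5464 bases for RELA and 2373 for NFKBIA. On this scale NFKBIA led in FaDu controls with 53.9 CPM per kb (SD 2.96, n = 3), followed by RELA with 29.3 (SD 1.31). NFKBIB (17.3), NFKB2 (15.2), BCL3 (14.8), NFKB1 (14.3) and TNFAIP3 (9.97) formed a middle range, in which BCL3 and NFKB1 lay within 1 SD of NFKB2. RELB (5.92), NFKBIE (5) and NFKBIZ (3.63) were lowest. In SAS controls RELA (24.5, SD 0.897) and NFKBIA (24.1, SD 2.49) did not differ beyond their SD, and NFKBIZ was lowest at 0.921 CPM per kb (SD 0.181). Upon HT, NFKBIZ reached 7.68 (SD 2.28) in SAS, close to RELB at 7.63 (SD 1.01), and NFKBIA fell to 17.3 (SD 2.17), below RELA at 22.5 (SD 0.844).

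**Figure D4:**
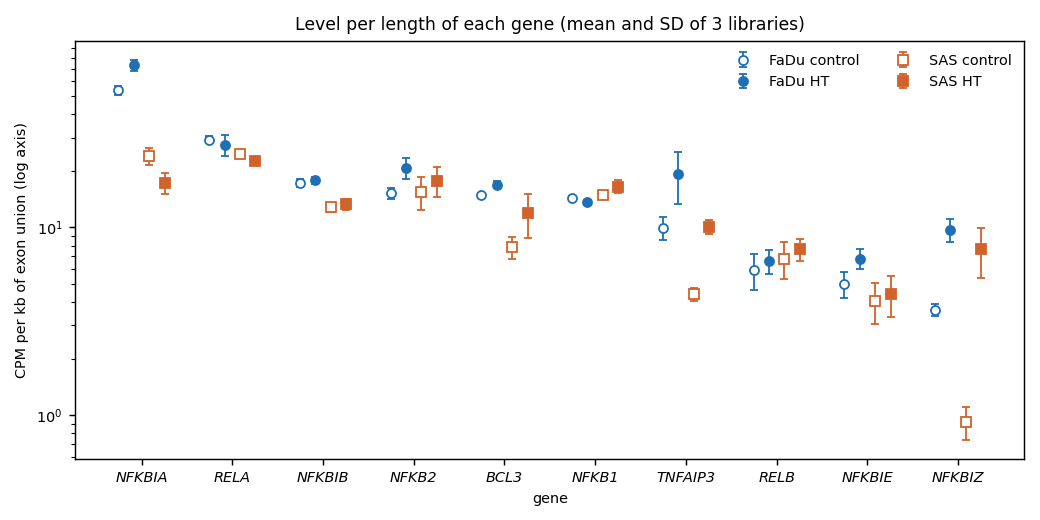
Mean level per kilobase of exon union in CPM per kb on a log axis, with SD bars over 3 libraries, for controls (open) and HT (filled) in FaDu (blue circles) and SAS (orange squares), genes ordered by the FaDu control. NFKBIA had the highest level per kb of exon union in FaDu controls, at 53.9, and NFKBIZ in SAS moved from 0.921 to 7.68 CPM per kb upon HT.

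The difference between spheroid types in the response was tested as an interaction, FaDu minus SAS. For RT, 0 of 10 members and 0 of 16811 genes were altered by edgeR, with 460 genes and 0 members at an unadjusted p under 0.05 and 1 gene by DESeq2. For HT, 1 of 10 members was altered, against 2.74% of 17219 genes, and 2 passed the adjusted p, against 5.55%. For HT + RT these were 2 of 10 (3.4%) and 2 of 10 (7.27%). With at least 10 counts in every library 367 genes were altered for HT + RT in place of 586. NFKBIZ responded less in FaDu, by -1.62 (SE 0.27, adjusted p = 0.0021) upon HT and -1.16 (SE 0.18, adjusted p = 0.00074) upon HT + RT. NFKBIA differed in the other sense, by 0.94 (SE 0.14, adjusted p = 0.00076) and 1.07 (SE 0.16, adjusted p = 0.00067). The HT + RT value of NFKBIA came under 1, between 0.93 and 0.96, without FaDu HT + RT replicate 2 or 3, SAS control replicate 1 or SAS HT + RT replicate 3. TNFAIP3 gave -0.22 (SE 0.24, adjusted p = 0.74) upon HT and 0.19 (SE 0.25, adjusted p = 0.76) upon HT + RT, and 0.54 (adjusted p = 0.0078) for HT + RT in FaDu replicates 2 and 3 alone. NFKBIA went past 1 for HT in FaDu replicates 2 and 3 alone (adjusted p = 0.000244), which made 2 altered members. BCL3 passed for HT without SAS HT replicate 3 (-0.65, adjusted p = 0.0122) and for HT + RT without SAS HT + RT replicate 3 (-0.57, adjusted p = 0.0453). For HT + RT with the block, NFKB2 (0.39, adjusted p = 0.0014) and BCL3 (-0.39, adjusted p = 0.0185) passed, where the main values were 0.39 (adjusted p = 0.31) and -0.38 (adjusted p = 0.25). For HT with the block, NFKB2 (0.28, adjusted p = 0.038) and BCL3 (-0.37, adjusted p = 0.044) passed as well. Their main values for HT were 0.29 (adjusted p = 0.54) and -0.39 (adjusted p = 0.39). With the block, 678 of all genes were altered for HT and 788 for HT + RT, and no share past the adjusted p is given.

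Whether RT added the same amount to heated as to unheated spheroids was tested in each type. In FaDu 0 of 10 members and 0 of 16793 genes were altered, with 541 genes and 1 member at an unadjusted p under 0.05 and 1 gene by DESeq2. In SAS 0 of 10 members were altered against 1 of 15833 genes (0.00632%) by edgeR, and 0 members against 3 genes by DESeq2. The count of altered genes was 2 in FaDu and 5 in SAS with the block. With no filter on low counts it was 18 in FaDu and 9 in SAS. At an unadjusted p under 0.05 there were 629 genes and 1 member in SAS. That member was NFKBIZ in both lines. Its interaction estimates were -0.82 (SE 0.17, adjusted p = 0.64) in FaDu and -1.29 (SE 0.31, adjusted p = 0.73) in SAS, and neither passed the adjustment. DESeq2 gave -0.82 with an adjusted p of 0.023 in FaDu, where the block gave -0.83 and did not pass (adjusted p = 0.066). In SAS the block gave -1.27 with an adjusted p of 0.049, and DESeq2 did not pass NFKBIZ.

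Among 28 upstream adaptors and kinases, 0 were altered by any of the 6 treatments against control by edgeR or DESeq2. Past the adjusted p alone, 2 rose and 7 fell upon HT in FaDu, and 4 rose and 6 fell in SAS, where 17.6% and 23.6% of all genes passed. At an unadjusted p under 0.05 there were 3, 14 and 17 genes of the list for RT, HT and HT + RT in FaDu, where all genes gave 791 of 15552, 4885 of 15879 and 5081 of 15896. In SAS these were 1, 15 and 13, where all genes gave 834 of 14680, 5323 of 15000 and 5392 of 14938. The 5 genes named next were picked once their values had been seen. The largest rise of the list upon HT was that of MYD88, an adaptor of Toll-like receptors, in FaDu (0.55, SE 0.12, adjusted p = 0.015) and that of IRAK2, a kinase of the same branch, in SAS (0.76, SE 0.2, adjusted p = 0.017). TNFRSF1A, the main receptor for TNF, fell by 0.77 (SE 0.1, adjusted p = 0.0015) in FaDu on the log2 scale and gave -0.20 (SE 0.07, adjusted p = 0.064) in SAS. TBK1, a kinase related to the IκB kinases, fell in both, by 0.61 (SE 0.07, adjusted p = 0.00065) and by 0.50 (SE 0.11, adjusted p = 0.0067). TRAF2, an adaptor of TNF receptors, fell by 0.55 (SE 0.09, adjusted p = 0.0049) in FaDu and rose by 0.38 (SE 0.07, adjusted p = 0.0027) in SAS spheroids. The median of this list upon HT was -0.15 in FaDu and -0.04 in SAS. Upon HT + RT, 3 rose and 6 fell in FaDu and 4 rose and 6 fell in SAS, where 19.3% and 25.1% of all genes passed.

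Of 20 other subunits and regulators, 19 were tested in FaDu and 18 in SAS. ZC3H12A, an RNase that degrades inflammatory mRNAs, was the altered gene of this list in FaDu, at 21.6 to 25.7 CPM in controls, 78.2 to 104 CPM upon HT and 102 to 140 CPM upon HT + RT. Both heated groups lay above the controls and overlapped with each other, and the gene rose by 1.95 (SE 0.12, adjusted p = 2.1e-05) and 2.41 (SE 0.13, adjusted p = 4.5e-06) on the log2 scale. In SAS it rose by 0.95 (SE 0.15, adjusted p = 0.00065) upon HT. ZC3H12A was also the 1 gene of this list past the adjusted p after RT in FaDu (0.82, SE 0.09, adjusted p = 0.022). Past the adjusted p upon HT, 3 rose and 1 fell in FaDu (17.6% of all genes), and 6 rose and 3 fell in SAS (23.6% of all genes), where 0 of the list were altered by edgeR or DESeq2 with 10 at an unadjusted p under 0.05. Upon HT + RT, 2 rose and 2 fell in FaDu (19.3% of all genes) and 8 rose and 2 fell in SAS (25.1% of all genes), where 0 of the list were altered by edgeR or DESeq2 with 11 at an unadjusted p under 0.05.

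The list of 37 NF-κB target genes held more altered genes. Upon HT, 10 of 31 tested were altered in FaDu, all upward (4.97% of all genes), and 10 of 30 in SAS, 7 upward and 3 downward (6.03% of all genes). HT + RT altered 11 of 32 in FaDu, all upward (5.72% of all genes), and 13 of 31 in SAS, 11 upward and 2 downward (6.36% of all genes). The list was written with earlier results of these data known, so that its counts are no independent evidence. Its median log2 fold change upon HT was 0.22 in FaDu and 0.10 in SAS, medians taken over genes that moved in both directions.

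IL6, an inflammatory cytokine, changed most in FaDu, from 1.02 to 1.57 CPM in controls to 25.0 to 33.9 CPM upon HT (4.57, SE 0.21, adjusted p = 3.3e-06). In SAS it went from 2.12 to 4.39 CPM to 12.04 to 17.7 CPM (2.30, SE 0.23, adjusted p = 2.3e-05). CXCL8, a neutrophil chemokine, rose by 2.80 (SE 0.17) in FaDu and 1.95 (SE 0.21) in SAS upon HT, from control levels of 42.2 to 45.4 and 1.24 to 1.65 CPM. GADD45B, a stress and survival gene, rose by 3.48 (SE 0.28) and 1.1 (SE 0.14). CCL20 (2.44), CXCL3 (1.60), PTGS2 (1.37) and CD83 (1.27) were further altered targets in FaDu, and CCL2 (2.48), CXCL1 (1.47) and ICAM1 (1.39) in SAS. Some of these rest on few counts over the 3 libraries of a group. In SAS, CCL2 went from 24 counts in controls to 138 upon HT and CXCL1 from 84 to 237. In FaDu, CCL20 went from 88 to 422. In FaDu upon HT + RT the leading altered targets also included PTX3 (1.70) and CXCL2 (1.59), and in SAS PTGS2 (2.03) and NOD2 (1.33). TNF had 74 counts upon HT + RT in FaDu against 3 counts over all 3 controls, a ratio of 22.8 with a 95% counting interval of 7.52 to 113.

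IER3, an early survival gene, went from 31.2 to 51.9 CPM in FaDu controls to 107 to 108 CPM upon HT, and from 134 to 158 CPM in SAS controls to 40.3 to 50.02 CPM. It rose by 1.49 (SE 0.17, adjusted p = 0.00065) in FaDu and fell by 1.59 (SE 0.1, adjusted p = 3e-07) in SAS, an interaction of 3.11 (SE 0.21, adjusted p = 7.3e-07). IL1A, a cytokine of keratinocytes, fell by 1.42 (SE 0.15, adjusted p = 3.3e-05) in SAS upon HT, while FaDu libraries overlapped with their controls at 95.3 to 114 CPM.

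**Figure D5:**
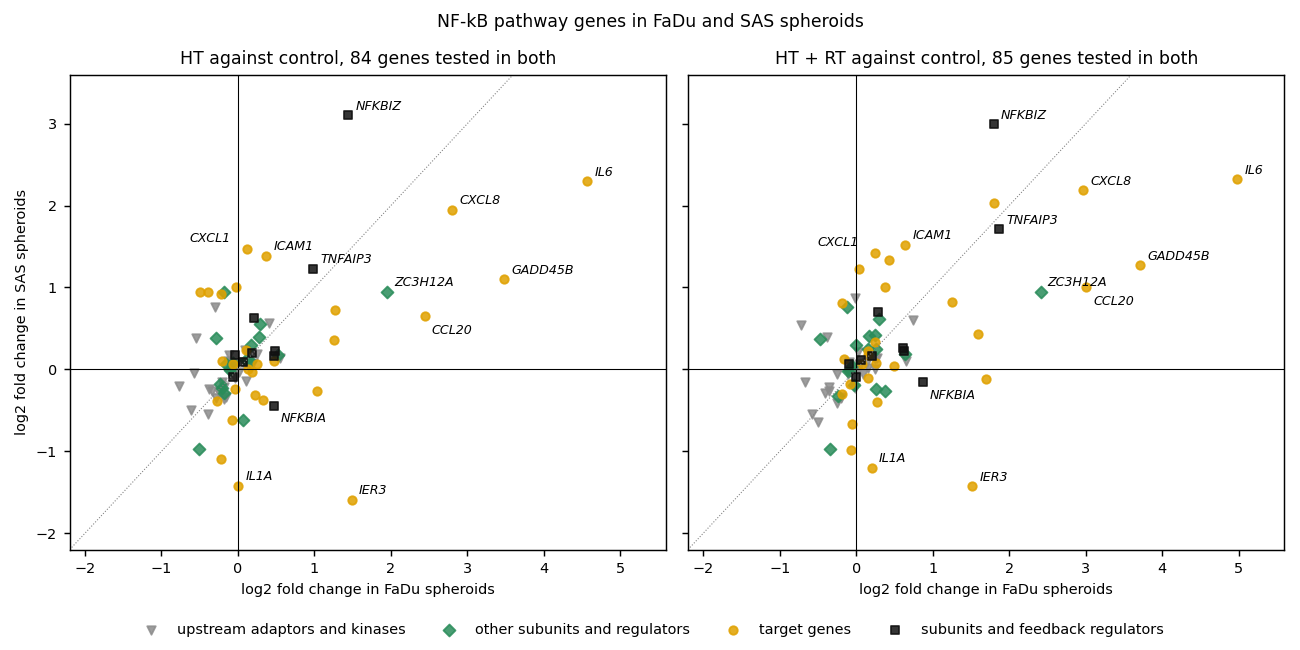
Log2 fold change against control in FaDu (horizontal) and SAS (vertical) spheroids for HT (left, 84 genes tested in both) and HT + RT (right, 85 genes), with the 10 subunits and feedback regulators as black squares, targets in yellow, other regulators in green, upstream genes in grey and a dotted line of equal change. NFKBIZ lay above the line at 1.44 and 3.10 upon HT, IL6 below it at 4.57 and 2.30, and IER3 and NFKBIA lay in the area where FaDu rose and SAS fell.

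After RT alone, 0 target genes were altered in FaDu by edgeR, with 11 of 31 at an unadjusted p under 0.05, where all genes gave 791 of 15552, and 1 altered by DESeq2. CXCL8 rose past the adjusted p alone (0.71, SE 0.06, adjusted p = 0.005). In FaDu replicates 2 and 3 alone 1 target was altered. In SAS 0 were altered as well, with 5 of 29 at an unadjusted p under 0.05, where all genes gave 834 of 14680, and 1 altered by DESeq2. Between the controls, where 38.1% of all genes were altered, 17 of 31 targets were, 10 higher in FaDu and 7 higher in SAS. CXCL1 (5.68, SE 0.16) and CXCL8 (4.91, SE 0.12) were far higher in FaDu, and GADD45B (-3.48, SE 0.21) and CSF2 (-3.46, SE 0.37) were higher in SAS. PTGS2 (3.74), CXCL3 (3.12), SAA1 (2.48) and CXCL2 (2.14) completed the 8 largest. Of the other regulators 2 of 19 were altered and higher in FaDu and 1 higher in SAS. IRAK3, a brake on receptor signaling, had 189 counts in FaDu controls and 0 in SAS controls, at least 61.2-fold higher against a floor of 3 counts over the group. NFKBID (1.23) was higher in FaDu and PDLIM2 (-1.17) in SAS. Of the 28 upstream genes 2 were altered and higher in FaDu and 3 in SAS. IKBKB (1.70) and MYD88 (1.04) were higher in FaDu, and IRAK2 (-2.37), TRAF5 (-1.95) and SHARPIN (-1.48) in SAS.

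Of the 10 members, NFKBIZ and TNFAIP3 were altered against control, and their closest genes over 24 libraries were sought among 11420 expressed genes, with levels centred within spheroid type. For NFKBIZ these were ARGLU1 (r = 0.922), LINC00641 (r = 0.92) and DNTTIP2 (r = 0.917), and for TNFAIP3 they were KLHL25 (r = 0.931), AL118506.1 (r = 0.93) and DNAJB6 (r = 0.926). Within FaDu the values for NFKBIZ were 0.751, 0.824 and 0.832 in that order, and within SAS 0.963, 0.971 and 0.951. For TNFAIP3 they were 0.9, 0.891 and 0.916 within FaDu and 0.97, 0.97 and 0.946 within SAS. NFKBIZ and TNFAIP3 correlated with each other at 0.86. The libraries share treatment, so these values describe a common pattern over conditions.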

How the data were processed

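The authors isolated RNA from FaDu and SAS spheroids with 3 replicates a group and deposited, for 7 comparisons, tables of raw counts per gene and of normalized counts, the latter not used here. The submitters' processing notes name bcl2fastq and DESeq2 and the build mm9, a mouse build that does not go with the human identifiers. Aligner, counting program, strand setting and annotation are not given in the sources used here. Symbols and exon lengths came from GENCODE release 29, which held 56898 of the 57500 identifiers (the other 602 had 0.0217 percent of counts). All 18 repeated control columns were identical, and replicates differed by more than sampling noise.

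Counts were tested in edgeR 4.0.16 (R 4.3.3) with TMM, filterByExpr (minimum count 10) and quasi-likelihood fits of only the groups compared. The code was run on simulated counts with the same spread for every gene and no replicate structure. That run cannot show how the tests behave with the uneven and paired replicates of these data. Levels are CPM. Intervals use the t quantile of each gene, and floors and counting intervals cover counting error only. Same-numbered libraries correlated over 0.1 in each pair (lowest to highest r 0.15 to 0.57) in 7 of 9 comparisons, but not for SAS HT (0.03 to 0.18) or the controls (-0.02 to 0.1). Alternatives were DESeq2 1.42.0, RLE and upper-quartile scaling, other filters, the replicate block, all libraries in 1 fit, each library left out, and, chosen after seeing the data, FaDu libraries 2 and 3 alone. Members, gene lists and the rule for named genes (all members, and up to 8 altered genes per list and comparison) were chosen with earlier results of these data known.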

Additional observations from a re-analysis of the deposited data

Results flagged for a closer look

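The response to heating differed between FaDu and SAS spheroids, by the interaction test, for some genes of the pathway (log2 fold change in FaDu minus that in SAS). Among the subunits and feedback regulators, these were NFKBIZ, with -1.62 upon HT and -1.16 upon HT + RT, and NFKBIA, with 0.94 and 1.07. Among the targets, IER3 gave 3.11 upon HT and 2.98 upon HT + RT, GADD45B 2.41 and 2.47, IL6 2.30 and 2.70, CCL20 1.82 and 2.03, and IL1A 1.45 and 1.44. CXCL1 had the larger fold change in SAS, with -1.31 and -1.13, but at a low level. Its mean went from 1.58 CPM in SAS controls to 4.28 CPM upon HT, and from 79.9 to 85.3 CPM in FaDu. The regulator ZC3H12A gave 1.04 and 1.49. NKIRAS1, which encodes a Ras-like protein that binds IκB proteins, was altered in this contrast upon HT at -1.09, and TRAF2 upon HT + RT at -1.22. Baseline levels of NFKBIZ, NFKBIA, IER3, IL6, CXCL1 and GADD45B also differed between the controls by an altered call, and those of IL1A, ZC3H12A, NKIRAS1 and TRAF2 past the adjusted p alone, and their part in the difference was not tested.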

How the results depend on the processing

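The 27 member fold changes past the adjusted p kept their direction in all 389 alternative values, and 8 of these, from 4 fold changes, no longer passed. The counts of altered members stayed within 1.5 times of the main count in 200 of 218 alternative values. With upper-quartile factors, 2 in place of 1 were altered by HT in FaDu, as in FaDu libraries 2 and 3 alone (2), which also gave 2 in place of 1 for spheroid type by HT. For RT in SAS, DESeq2, no filter on low counts, the replicate block and all 24 libraries in 1 fit each gave 1 in place of 0. For HT by RT in SAS, no filter on low counts and the replicate block gave 1 in place of 0. The block moved no other count of altered members. With each library left out in turn, the counts ranged from 0 to 1 for RT in FaDu, from 1 to 2 for HT in FaDu, from 2 to 3 for HT + RT in FaDu and from 1 to 2 for spheroid type by HT + RT. The cause of these changes was not tested. The block also brought NFKB1 (0.18, adjusted p = 0.034) and NFKB2 (0.22, adjusted p = 0.013) past the adjusted p upon HT in SAS. For spheroid type by HT it did so for NFKB2 (0.28, adjusted p = 0.038) and BCL3 (-0.37, adjusted p = 0.044). Between the controls, where the numbers do not pair the libraries, it did so for NFKBIE (0.35, adjusted p = 0.04). Same-numbered libraries also did not correlate over 0.1 in each pair for SAS HT against control (0.03 to 0.18), which enters spheroid type by HT. In the same order, the main values were 0.18 (adjusted p = 0.075) and 0.22 (adjusted p = 0.32) upon HT in SAS. For spheroid type by HT they were 0.29 (adjusted p = 0.54) and -0.39 (adjusted p = 0.39), and between the controls 0.33 (adjusted p = 0.14). NFKB1 upon HT in SAS also passed with upper-quartile factors (0.21, adjusted p = 0.0433) and with all 24 libraries in 1 fit (0.18, adjusted p = 0.0211). The median of all genes between the controls moved from 0.03 to 0.14 with upper-quartile factors and to 0.16 with no filter on low counts. With no filter, the median upon HT in FaDu moved from 0.01 to 0.16. The 3 libraries a group and their 15203484 to 29452514 counts limit how small a change can be detected.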

Other observations

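In SAS spheroids the endothelial marker CDH5 followed the replicate number as NFKB2 and NFKBIE did, with 15.9, 18.5 and 9.08 CPM in controls and 16.2, 20.9 and 8.35 CPM upon HT, replicate 2 being the highest and replicate 3 the lowest. The endothelial genes PECAM1, KDR and TEK were under 1 CPM in all SAS libraries. NFKBIE and NFKB2 correlated at 0.86 over the 24 libraries, centred within spheroid type, as a description over libraries that share treatment and replicate number.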
